A study of Mus with 3 samples.

Results

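Cells of the lung alveolus pass through a transitional state when a surfactant-making alveolar type 2 cell turns into a flat alveolar type 1 cell, as happens during repair. Cells in that state are known from mouse injury models for simple-epithelial keratins (Krt8, Krt18, Krt19, Krt7), the tight-junction protein claudin 4 (Cldn4), the cell-cycle brakes Sfn and Cdkn1a, the lectin Lgals3, the TGF-beta-activating integrin subunit Itgb6 and the secreted chaperone Clu. Keratin filaments are built from a type I keratin (Krt18 or Krt19) and a type II keratin (Krt8 or Krt7), so the members of the keratin group work in pairs. The 10 genes were taken by symbol from the 27998 genes of the matrices, and all 10 were found. They were described in cells with at least 2% of their unique molecules (UMIs) from Sftpc, the surfactant protein C gene that defines type 2 cells, called Sftpc cells here.

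Whole lungs of female mice aged 6 to 12 weeks were dissociated and sequenced with a droplet 3′ kit in 3 libraries. DJ-1 KO OVA came from mice that lack DJ-1, the oxidative-stress protein encoded by Park7, and that were challenged with ovalbumin, a model allergen. WT OVA came from wild-type mice given the same challenge, and WT PBS from wild-type mice challenged with saline. Each library pooled the cells of 3 mice, so differences between libraries could not be checked against mice and were not tested, and both group comparisons use the WT OVA library. The labels do not say how the knockout was made.

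After filtering, DJ-1 KO OVA kept 4438 cells, WT OVA 5930 and WT PBS 3855. Of these, 283, 779 and 306 in that order were Sftpc cells, with medians of 9397, 6952 and 14177.5 UMIs, so those of WT PBS held the most UMIs. Park7 stood at 23.4 CPM (UMIs per 1000000) in DJ-1 KO OVA Sftpc cells, against 99.6 CPM in WT OVA and 122 CPM in WT PBS. WT PBS and DJ-1 KO OVA share 372 cell barcodes. The cell with fewer UMIs of each shared barcode was left out, which removed 66 cells of DJ-1 KO OVA and 306 of WT PBS; keeping those cells, or dropping both cells of each such barcode, changed none of the counts of members past a threshold given below. The doublet caller marked 3 barcodes in DJ-1 KO OVA, against 162 in WT OVA and 57 in WT PBS, so it may not have worked in DJ-1 KO OVA. The WT PBS title mentions an ovalbumin challenge, but the treatment given for it is PBS, which was used.

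All 9 type 2 markers other than Sftpc were detected in each library, and 100% of Sftpc cells held at least 3 of them. At least 3 of 8 alveolar type 1 markers were also held by 78.1% of Sftpc cells in DJ-1 KO OVA, 86.0% in WT OVA and 88.6% in WT PBS. Few cells lay near the limit on Sftpc: between 2 and 3%, DJ-1 KO OVA had 7 cells, WT OVA 3 and WT PBS 3, and between 1 and 2% they had 10, 5 and 5. The 10 members summed to 2966, 2473 and 3794 CPM in the cells just above the limit and to 3948, 5433 and 2702 CPM in those just below it. Retnla, which encodes a resistin-like molecule induced by type 2 cytokines, split the cells at 1% of their UMIs. DJ-1 KO OVA had 192 Retnla-high cells of 283, WT OVA 45 of 779 and WT PBS 0 of 306, where a count of 0 allows a share of up to 0.980%. The split was not clear-cut in DJ-1 KO OVA: 41 cells lay between 1 and 2% and 13 between 0.5 and 1%, and cells with B cell markers carried 0.790% of their UMIs as Retnla, against 0.0749% in WT OVA and 0.000119% in WT PBS. Retnla-high cells were also deeper, with median UMIs of 10241 against 7481 for Retnla-low cells in DJ-1 KO OVA, and 9450 against 6847 in WT OVA.

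The members lie on 7 autosomes in the GRCm38.p6 RefSeq annotation, to which they were matched by symbol, and all are protein-coding. Krt7 (101412403 to 101427806), Krt8 (101996711 to 102004342) and Krt18 (102028216 to 102032026) lie on chromosome 15. Lgals3 (47373860 to 47386167) and Clu (65968483 to 65981548) lie on chromosome 14. Itgb6 lies on chromosome 2 (60598292 to 60722603), Sfn on chromosome 4 (133600556 to 133602168) and Cldn4 on chromosome 5 (134945123 to 134946934). Krt19 lies on chromosome 11 (100140810 to 100145926) and Cdkn1a on chromosome 17 (29090979 to 29100722). RefSeq also lists a Krt8 pseudogene, Krt8-ps, and how the authors' counting treated reads shared with it is not given in the sources used here.

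Levels are UMIs of a gene summed over the cells of a set and scaled to that set's total. Brackets hold 95% intervals, exact Poisson for levels, exact conditional binomial for ratios and Clopper-Pearson for shares. The share a count of 0 allows is 3 counts of the total, and limits cells with a UMI, not cells that express the gene. These intervals reflect counting error alone, not differences between mice.

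**Figure D1:**
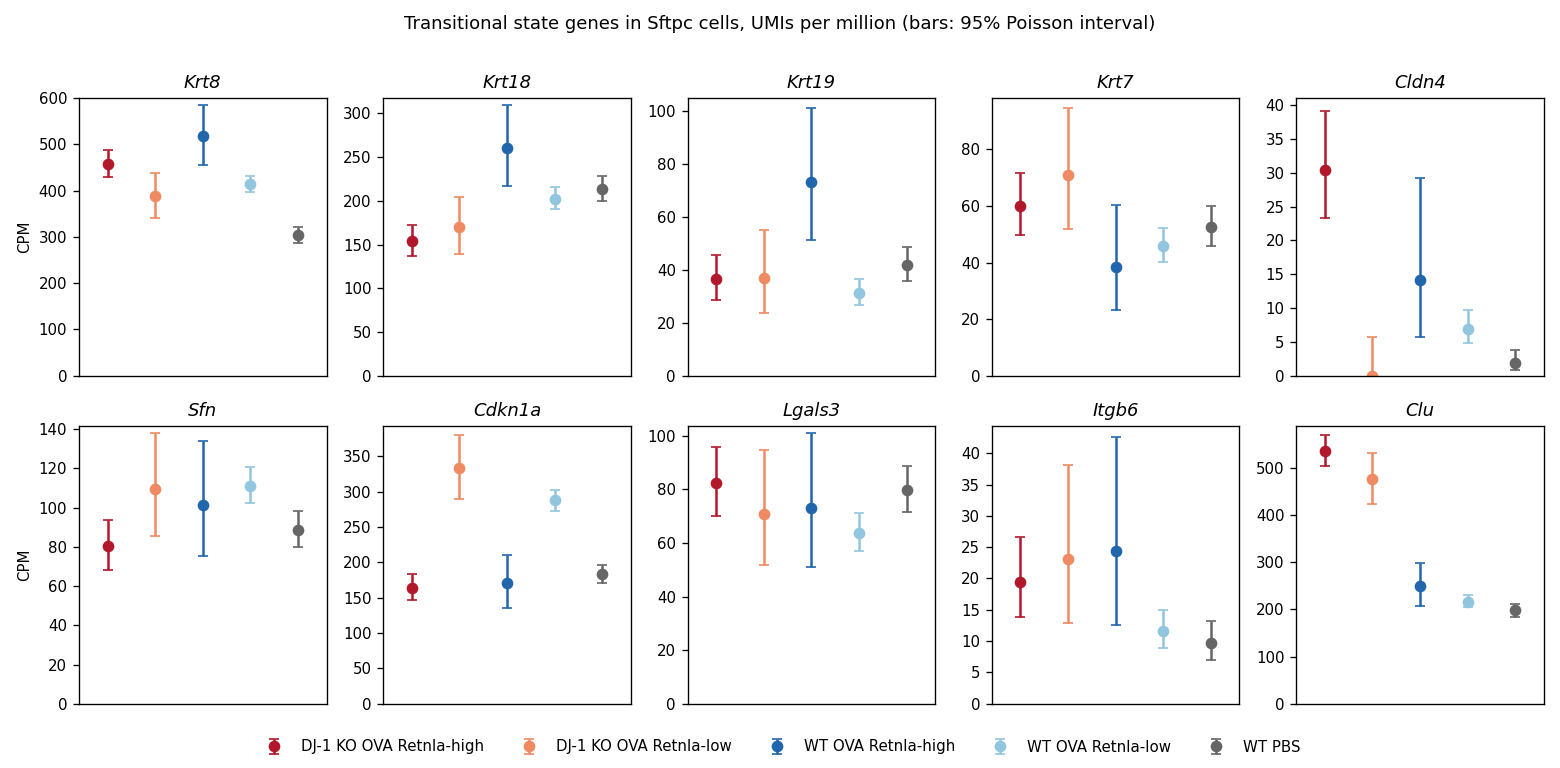
Level of each member in Sftpc cells (y axis, CPM, each panel starting at 0) in the 5 cell sets, DJ-1 KO OVA Retnla-high and Retnla-low, WT OVA Retnla-high and Retnla-low, and WT PBS; bars are 95% Poisson intervals of 1 library each. Clu stood at 537 and 475 CPM in the DJ-1 KO OVA sets, against 198 to 250 CPM in the others, and Cldn4 was at 0 in DJ-1 KO OVA Retnla-low cells.

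Type II keratins came first. Krt8 was at 441 CPM [416 to 467] in DJ-1 KO OVA, 423 CPM [406 to 441] in WT OVA and 303 CPM [287 to 321] in WT PBS, so both challenged libraries were above WT PBS and their own intervals overlapped. Krt7 was at 62.6 CPM [53.4 to 72.9] in DJ-1 KO OVA, 45.3 CPM [39.9 to 51.2] in WT OVA and 52.4 CPM [45.7 to 59.8] in WT PBS. DJ-1 KO OVA was the highest for Krt7, with an interval that overlapped that of WT PBS.

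Type I keratins did not follow Krt8. Krt18 was at 158 CPM [143 to 174] in DJ-1 KO OVA, 208 CPM [196 to 220] in WT OVA and 214 CPM [200 to 228] in WT PBS. Krt19 was at 36.6 CPM [29.7 to 44.6], 35.0 CPM [30.3 to 40.3] and 41.9 CPM [36.0 to 48.6] in the same order, and its intervals overlapped. In bulk sums such as these, fewer cells with a gene and fewer UMIs per cell cannot be told apart. Shares of cells were therefore also read, with cells thinned to a common number of UMIs. In DJ-1 KO OVA, WT OVA and WT PBS, Krt18 was then found in 27.2%, 28.4% and 30.7% of cells, with overlapping intervals. Krt19 was found in 6.42%, 4.4% and 6.90% of cells in the same order, also with overlapping intervals.

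Cldn4, a claudin that tightens the paracellular barrier, had the lowest level of the 10 members in WT PBS and the largest ratio of them in both comparisons of libraries. It had 61 UMIs in DJ-1 KO OVA (23.0 CPM [17.6 to 29.6]), 43 UMIs in WT OVA (7.61 CPM [5.51 to 10.2]) and 8 UMIs in WT PBS (1.91 CPM [0.823 to 3.76]). Few cells carried it: 20 of 283 Sftpc cells in DJ-1 KO OVA, 17 of 779 in WT OVA, and 6 of the 306 Sftpc cells in WT PBS. The 5 cells with the most Cldn4 held 59.0% of its UMIs in DJ-1 KO OVA, 72.1% in WT OVA and 87.5% in WT PBS.

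The cell-cycle brakes were highest in WT OVA. Cdkn1a, the p53-induced inhibitor of cyclin-dependent kinases, was at 206 CPM [189 to 224] in DJ-1 KO OVA, 278 CPM [264 to 292] in WT OVA and 183 CPM [171 to 197] in WT PBS. Sfn, a p53 target that holds cells at a checkpoint, was at 87.5 CPM [76.6 to 99.5], 110.2 CPM [101.7 to 119] and 88.7 CPM [79.9 to 98.1] in the same order. For Sfn the intervals of DJ-1 KO OVA and WT PBS overlapped each other and lay below that of WT OVA.

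Lgals3, a galactoside-binding lectin abundant in macrophages, was at 79.6 CPM [69.2 to 91.1] in DJ-1 KO OVA, 64.6 CPM [58.1 to 71.6] in WT OVA and 79.8 CPM [71.5 to 88.9] in WT PBS. In WT PBS 1 cell held 69 of the 335 Lgals3 UMIs. Itgb6, the partner of the alpha-v integrin chain, was at 20.4 CPM [15.3 to 26.6] in DJ-1 KO OVA, 12.7 CPM [9.97 to 16.0] in WT OVA and 9.77 CPM [7.01 to 13.3] in WT PBS. Clu, which binds misfolded secreted proteins, was at 522 CPM [494 to 550] in DJ-1 KO OVA, 219.6 CPM [208 to 232] in WT OVA and 198 CPM [185 to 212] in WT PBS. Clu was thus the most abundant member in DJ-1 KO OVA, while Krt8 was the most abundant in both wild-type libraries. These are levels of 3′ tags, which do not scale with transcript length.

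These levels were set against cells that should lack the genes. In cells with fibroblast markers (median UMIs of 4392 in DJ-1 KO OVA, 4651 in WT OVA and 7722.5 in WT PBS) Krt8 was detected in 2.5%, 1.5% and 1.32% of cells, against 84.5%, 73.0% and 76.5% of Sftpc cells in the same order. Cldn4 was detected in 0%, 0.251% and 0% of cells with fibroblast markers, against 7.07%, 2.18% and 1.96% of Sftpc cells. It was not absent from all other cells. In DJ-1 KO OVA, 9 of 299 cells with thymocyte-like markers held it (median UMIs of 927), at 26.1 CPM [12.5 to 47.9] over that group. In cells with B cell markers (median UMIs of 1149, 1324 and 3034) Clu stood at 4.42, 7.29 and 0 CPM and Itgb6 at 0 in each library. Lgals3 stood at 48.6, 20.2 and 28.1 CPM in those cells, closer to its level in Sftpc cells, so the part of free RNA in the Lgals3 level was not tested. Sfn was at 28.7, 110.2 and 93.6 CPM in cells with B cell markers but at 0 to 4.52 CPM in cells with fibroblast markers. Clu and Cdkn1a were present in cells with fibroblast markers. Clu stood at 40.7 CPM in DJ-1 KO OVA and 45.7 CPM in WT OVA there, and Cdkn1a at 251 and 374 CPM.

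In WT OVA over WT PBS, 2 of the 10 members were past 1.5-fold higher and 0 lower, beside 8.68% of 10950 genes higher and 6.75% lower. The median log2 ratio of the members was 0.23, beside 0.06 over all genes with at least 20 UMIs. The 2 were Cldn4, at 3.99 times WT PBS [1.85 to 9.83], and Cdkn1a, at 1.51 times [1.39 to 1.65]. Krt8 stood at 1.39 times [1.30 to 1.49] and Lgals3 at 0.809 times [0.695 to 0.941], neither past the threshold. Among the 213 WT OVA and 54 WT PBS cells left without those holding 2 or more markers of a club, ciliated, mesothelial or immune cell type, Krt8 stood at 1.59 times and Krt7 at 1.54 times WT PBS, both past it, where Krt7 was at 0.864 times [0.719 to 1.04] in all Sftpc cells. Without the 5 cells of each set with the most member UMIs, the log2 ratio of Cldn4 was 0.66 and that of Lgals3 turned to 0.17, against -0.31 with them. Without cells that held at least 5% airway marker UMIs, the log2 ratio of Cldn4 was 1.44. The log2 ratio of Cdkn1a was 0.60, close to the threshold, and ranged from 0.53 to 1.21 over 13 settings. In the Retnla-low cells of both libraries Cldn4 stood at 3.66 times [1.67 to 9.11] and Cdkn1a at 1.57 times [1.44 to 1.72].

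In DJ-1 KO OVA over WT OVA, 3 of the 10 members were past 1.5-fold higher and 0 lower, beside 16.3% of 10777 genes higher and 9.34% lower. Their median log2 ratio was 0.18, beside 0.09 over all genes. Cldn4 stood at 3.02 times WT OVA [2.01 to 4.58], Clu at 2.38 times [2.20 to 2.57] and Itgb6 at 1.60 times [1.10 to 2.31]. Krt18 stood at 0.760 times [0.678 to 0.850], Cdkn1a at 0.740 times [0.670 to 0.817] and Sfn at 0.794 times [0.680 to 0.924], none past the threshold. The Retnla split separates these. In Retnla-low cells Clu was still at 2.19 times [1.93 to 2.49] and Itgb6 at 1.99 times [1.05 to 3.55]. Among Retnla-high cells, however, Itgb6 was at 0.799 times [0.410 to 1.68], an interval that includes no difference. In Retnla-low cells Cdkn1a was at 1.16 times [0.999 to 1.34] and Cldn4 had 0 UMIs in DJ-1 KO OVA, against 36 in WT OVA. So the direction of Cldn4 turned in Retnla-low cells, where 3 UMIs would have been 4.63 CPM in DJ-1 KO OVA, against a level of 6.98 CPM in WT OVA. Over 13 settings the ratio of Clu ranged from 1.93 to 2.46 times WT OVA, while the log2 ratio of Cldn4 ranged from 1.18 to 2.40 over 12 settings that gave a value. Itgb6 was not past the threshold with Sftpc at 5% (log2 0.38) or without cells holding 2 or more such markers (log2 0.43).

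**Figure D2:**
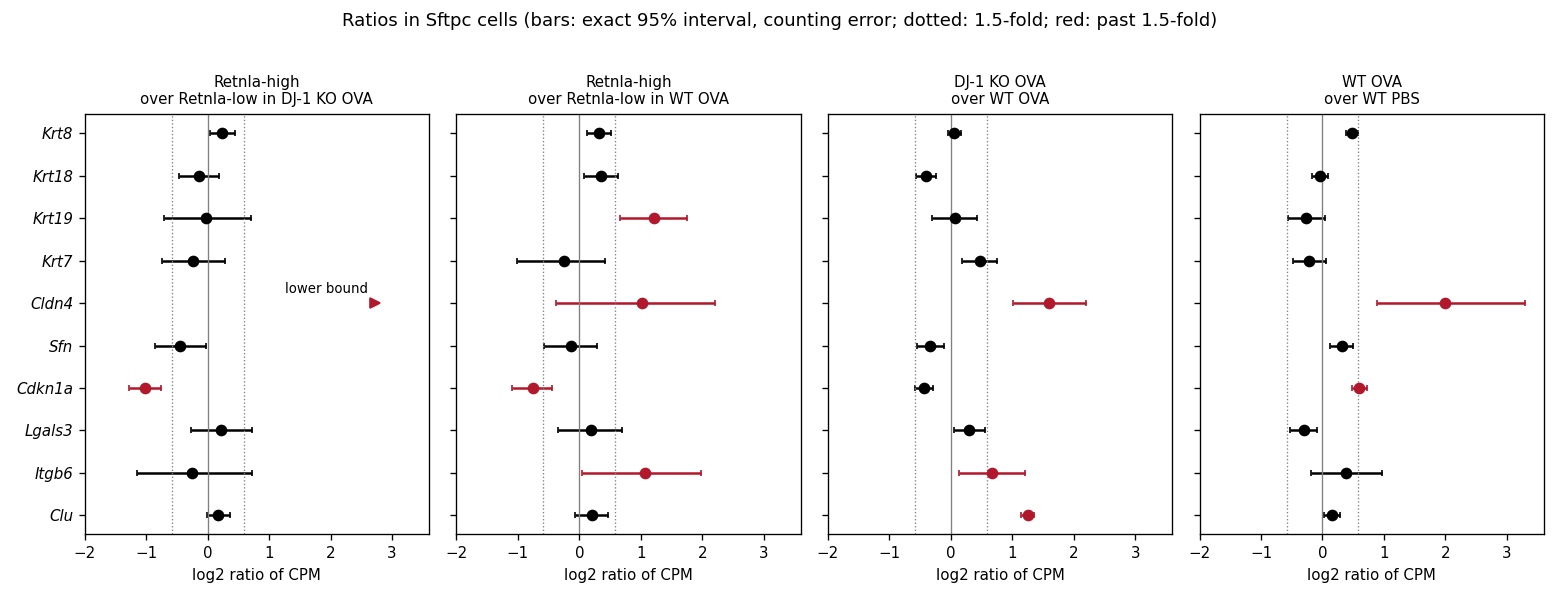
Log2 ratio of CPM (x axis) for each member (y axis) in 4 comparisons of Sftpc cells, with exact 95% counting intervals. Dotted lines mark 1.5-fold and red points lie past it. The arrow, labelled as a lower bound, is the ratio of Cldn4 against 3 UMIs, not a 95% limit. Cdkn1a lies left of the dotted line in both comparisons of Retnla-high with Retnla-low cells, and Clu lies far right in DJ-1 KO OVA over WT OVA.

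Retnla-high and Retnla-low cells of a library come from the same pool of 3 mice and share its preparation and its free RNA. Cells were not assigned to mice, so the 2 sets may draw on those mice unequally. In DJ-1 KO OVA, Cldn4 was past 1.5-fold higher and Cdkn1a past 1.5-fold lower, 1 member each, beside 12.8% of 8698 genes higher and 12.3% lower. All 61 Cldn4 UMIs lay in 20 of 192 Retnla-high cells and none in 91 Retnla-low cells, which allows a share of cells with a UMI of up to 3.30%; the Retnla-low cells were also the shallower ones. Against a floor of 3 UMIs over the Retnla-low cells, Cldn4 was at least 6.58-fold higher. Cdkn1a was at 164 CPM [147 to 183] in Retnla-high cells, against 333 CPM [290 to 381] in Retnla-low cells, which is 0.493 times [0.414 to 0.588]. With Retnla-high set at 5% of UMIs, no member was past 1.5-fold higher, and 201 cells then counted as Retnla-low.

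In WT OVA, Krt19, Itgb6 and Cldn4 were past 1.5-fold higher in Retnla-high cells and Cdkn1a lower, 3 and 1 of 10 members beside 9.86% of 9984 genes higher and 21.7% lower. Krt19 was at 73.1 CPM [51.2 to 101.2], against 31.4 CPM [26.7 to 36.6] in Retnla-low cells. Itgb6 stood at 2.10 times the Retnla-low level [1.03 to 3.94], and Cldn4 at 2.04 times [0.765 to 4.64], an interval that includes no difference. Cdkn1a was at 171 CPM [136 to 211], against 288 CPM [273 to 303] in Retnla-low cells, or 0.593 times [0.470 to 0.739].

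The Krt19 value rested on few cells. In WT OVA 2 of the 45 Retnla-high cells drew 37.0% of their UMIs, at the median, from club and goblet markers, and their median was 34375.5 UMIs. They held 19 of the 36 Krt19 UMIs and 50 of the 128 Krt18 UMIs of the Retnla-high cells. Without cells of at least 5% airway marker UMIs, the log2 ratio of Krt19 was 0.46 in place of 1.22, and that of Krt18 turned to -0.08 in place of 0.36. Over all 6 club markers the Retnla-high cells summed to 47664 CPM and the Retnla-low cells to 4385 CPM, and over all 6 goblet markers to 5498 and 39.7 CPM. Without the 2 cells, the Retnla-high cells had 23.6 CPM of Itgb6, 11.8 CPM of Cldn4 and 186 CPM of Cdkn1a. With them these levels were 24.4, 14.2 and 171 CPM. The part of airway RNA in the ratios of the other members was not tested.

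The level of Cdkn1a was lower in the Retnla-high cells of both challenged libraries. Its log2 ratio ranged from -1.28 to -0.20 over 14 settings in DJ-1 KO OVA and from -1.40 to -0.23 over 14 settings in WT OVA. It belongs to a list of p53 targets and senescence genes. In DJ-1 KO OVA 5 of 13 genes of that list with enough UMIs, Cdkn1a among them, were past 1.5-fold lower in Retnla-high cells and 1 higher, beside 12.3% of all genes lower and 12.8% higher, and their median log2 ratio was -0.42, beside -0.04 over all genes. Plk2, a p53-induced kinase, was at 14.5 CPM in Retnla-high cells, against 55.6 CPM in Retnla-low cells. Btg2, an antiproliferative gene, was at 358 CPM against 557 CPM. In WT OVA 4 of 15, again with Cdkn1a, were past 1.5-fold lower and 2 higher, near the 21.7% lower and 9.86% higher over all genes, and the median was -0.14, as over all genes. The stress cytokine gene Gdf15 was at 34.5 CPM in Retnla-high cells, against 76.6 CPM in Retnla-low cells.

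When Retnla-high cells of the challenged libraries were set side by side, 3 members were past 1.5-fold higher in DJ-1 KO OVA and 2 lower, beside 24.9% of 8528 genes higher and 7.80% lower. Clu stood at 537 CPM in DJ-1 KO OVA and 249.8 CPM in WT OVA, or 2.15 times [1.78 to 2.61], but at a log2 ratio of -0.22 among the 33 and 4 cells left without those holding 2 or more such markers. Krt7 stood at 1.55 times [0.952 to 2.67] and Cldn4 at 2.14 times [0.979 to 5.55], both with intervals that include no difference. Krt18 stood at 0.591 times [0.480 to 0.733] and Krt19 at 0.498 times [0.330 to 0.765]. Without the airway-marker cells named above, the log2 ratio of Krt18 was -0.26 and that of Krt19 was -0.13, neither past the threshold.

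Co-detection was counted in cells thinned to 2000 UMIs, since deeper cells show more genes. This left DJ-1 KO OVA with 265 cells (181 Retnla-high, 84 Retnla-low), WT OVA with 750 (44 and 706) and WT PBS with 290, with 18, 29 and 16 shallower cells left out. The median cell held 2 of the 10 members in every library and in every Retnla set. At least 2 members were found in 66.0% of cells [60.0 to 71.7] in DJ-1 KO OVA, 53.3% [49.7 to 57.0] in WT OVA and 50.3% [44.4 to 56.2] in WT PBS. At least 3 were found in 35.8% [30.1 to 41.9], 27.1% [23.9 to 30.4] and 24.5% [19.6 to 29.9] in the same order. DJ-1 KO OVA was thus above WT OVA for 2 or more members, with intervals that do not overlap. Of the 10 members, Clu had the widest gap, found in 51.3% [45.1 to 57.5] of thinned cells in DJ-1 KO OVA and 30.4% [27.1 to 33.8] in WT OVA. Cdkn1a (29.8 and 38.1%), Sfn (10.6 and 15.2%) and Krt18 (27.2 and 28.4%) were found in a lower share of DJ-1 KO OVA cells. The part of Clu in the count of members was not tested.

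Cells with many members were rare everywhere. At least 5 members were found in 10 of 265 DJ-1 KO OVA cells (3.77% [1.82 to 6.83]), 28 of 750 in WT OVA (3.73% [2.49 to 5.35]) and 6 of 290 in WT PBS (2.07% [0.763 to 4.45]). The difference was 0.0403 percentage points [-2.31 to 3.28] between DJ-1 KO OVA and WT OVA and 1.66 points [-0.965 to 3.62] between WT OVA and WT PBS (Newcombe intervals). Retnla-high and Retnla-low cells held 3.31% and 4.76% in DJ-1 KO OVA, a difference of -1.45 points [-8.53 to 3.27]. In WT OVA they held 4.55% and 3.68%, a difference of 0.863 points [-2.82 to 11.5]. A difference in highly co-expressing cells was therefore not detectable at this depth, and the intervals give how wide a gap the counts allow. Over 20 thinning draws the share ranged from 2.26 to 6.42% in DJ-1 KO OVA, 2.53 to 4% in WT OVA and 1.72 to 4.48% in WT PBS. The means over those draws were 4.74, 3.31 and 3.05% in the same order. By these means the wider gap was between DJ-1 KO OVA and WT OVA, not between WT OVA and WT PBS. The differences given above come from a single draw, and their intervals leave out the spread between draws.

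Without thinning, 51.2% of DJ-1 KO OVA cells, 31.3% of WT OVA cells and 53.9% of WT PBS cells held at least 5 members. That order follows the median depth of WT PBS, DJ-1 KO OVA and WT OVA Sftpc cells. Within DJ-1 KO OVA the unthinned shares were 57.8% of Retnla-high and 37.4% of Retnla-low cells, and within WT OVA 55.6% and 29.8%, again with the deeper set first.

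**Figure D3:**
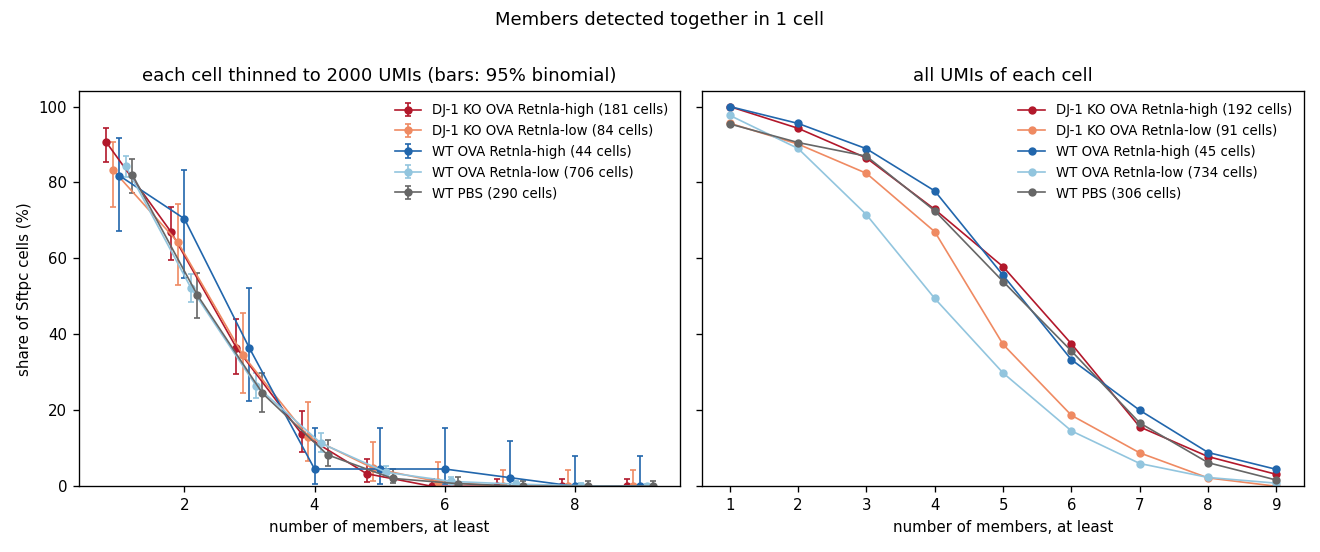
Share of Sftpc cells (y axis, percent) with at least the given number of the 10 members (x axis), in cells thinned to 2000 UMIs (left, bars are 95% binomial intervals) and with all UMIs (right), by library and Retnla set. At 5 members the thinned shares lie between 2.07 and 4.76%, while the unthinned ones lie between 29.8 and 57.8%.

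Among pairs, Krt8 with Krt18, the classic filament partners, were found together in 17.0% of thinned cells [12.7 to 22.1] in DJ-1 KO OVA, 16.1% [13.6 to 19.0] in WT OVA and 13.4% [9.74 to 17.9] in WT PBS. That was 1.30, 1.29 and 1.25 times the product of their separate shares. Krt8 with Clu were found together in 24.9% [19.8 to 30.6], 13.7% [11.4 to 16.4] and 12.4% [8.85 to 16.8] of cells in the same order. The pair with Clu stood at 1.01, 1.02 and 1.28 times the product of shares, so in the challenged libraries the higher count in DJ-1 KO OVA went with a higher share of Clu alone. Krt8 with Cdkn1a were found together in 15.1% [11.01 to 19.98], 18.9% [16.2 to 21.9] and 8.62% [5.66 to 12.5] of cells. For Cldn4 no library had more than 7 thinned cells with the gene, too few for a share of pairs to be read.

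**Figure D4:**
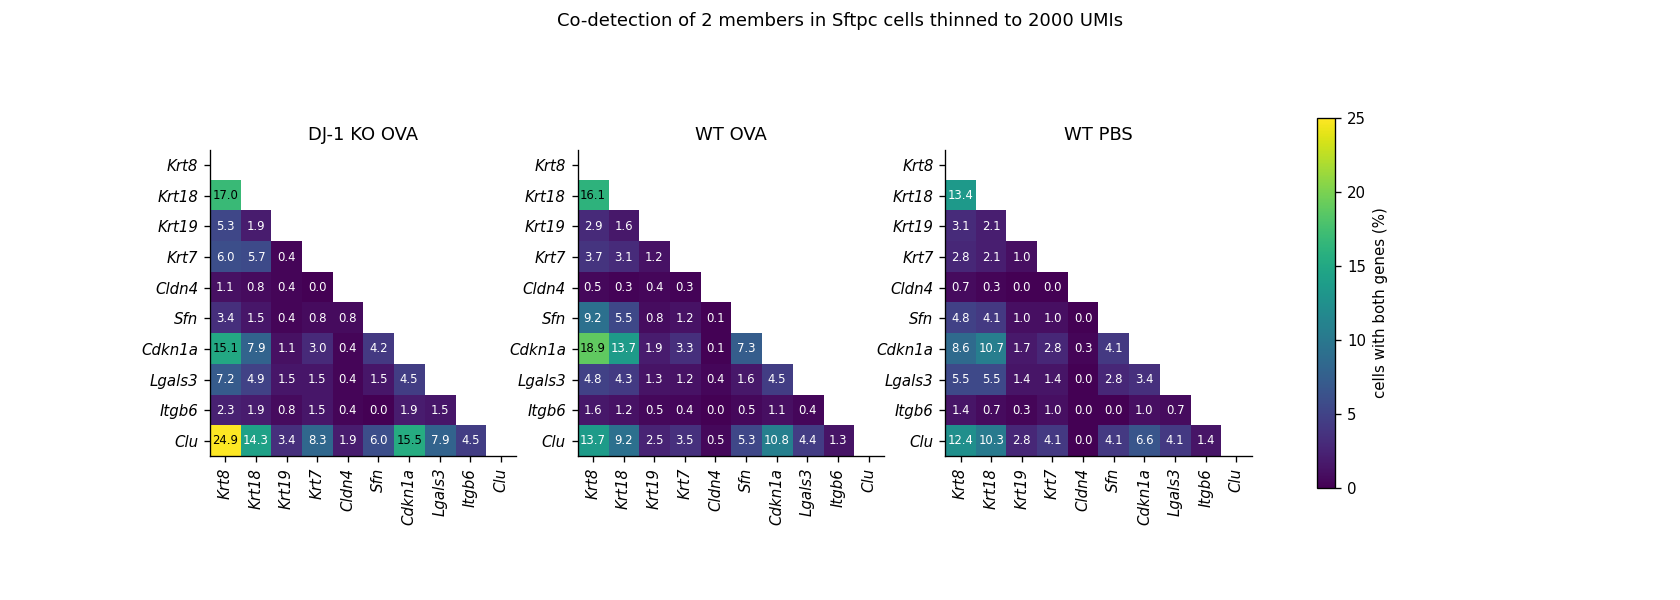
Share of Sftpc cells thinned to 2000 UMIs that hold both genes of a pair (number and colour, percent), for DJ-1 KO OVA, WT OVA and WT PBS. The brightest cell is Krt8 with Clu in DJ-1 KO OVA at 24.9%, against 13.7% in WT OVA and 12.4% in WT PBS.

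Keratin pairing was read from the same cells. A type I and a type II keratin were found together in 23.8% of DJ-1 KO OVA cells [18.8 to 29.4], 18.9% of WT OVA cells [16.2 to 21.9] and 17.2% of WT PBS cells [13.1 to 22.1]. A type II keratin with no type I keratin was found in 30.2%, 29.2% and 24.1% of cells. A type I keratin with no type II keratin was found in 7.92% [4.97 to 11.9] of DJ-1 KO OVA cells, 12.3% [10.0 to 14.8] of WT OVA cells and 18.3% [14 to 23.2] of WT PBS cells. The last share was thus lower in DJ-1 KO OVA, set against WT PBS, with intervals that do not overlap. No keratin was found in 38.1%, 39.6% and 40.3% of cells, and all 4 in 0 of 265 DJ-1 KO OVA cells (up to 1.13% allowed), 5 of 750 WT OVA cells and 0 of 290 WT PBS cells (up to 1.03% allowed).

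Cells with and without Cldn4 were set side by side as a description, since Cldn4 was detected more readily in deep cells. Thinned to 2000 UMIs, the cells with Cldn4 of DJ-1 KO OVA held a median of 2 of the 9 other members, as did those without (means of 2.15 and 2.04). In WT OVA the medians were 3 in the 17 cells with Cldn4 and 2 in those without (means of 3.76 and 1.76), and in WT PBS 3 in 6 cells and 1 (means of 2.67 and 1.65). Summed levels over all UMIs differed for some members. Leaving out the airway-marker cells, 20 Retnla-high DJ-1 KO OVA cells had Cldn4 (median 11733 UMIs) and 171 did not (median 10087 UMIs). Itgb6 stood at 59.1 CPM [34.4 to 94.6] in the cells with Cldn4 and 12.9 CPM [8.09 to 19.5] in those without. Clu stood at 866 CPM [761 to 980] and 483 CPM [450 to 517] in the same order, and Sfn at 156 CPM [114 to 209] and 68.1 CPM [56.2 to 81.6]. Krt8 stood at 601 CPM [515 to 698] and 436 CPM [405 to 468], while Cdkn1a stood at 181 CPM [135 to 237] and 163 CPM [144 to 183], with overlapping intervals. In WT OVA 14 such Sftpc cells had Cldn4 and 761 did not, and Krt8 stood at 1456 CPM [1257 to 1677] and 381 CPM [364 to 398]. Lgals3 in WT OVA stood at 356 CPM [262 to 474] and 58.0 CPM [51.8 to 64.9] in those cells, but Itgb6, with 2 UMIs in the cells with Cldn4, at 15.2 CPM [1.84 to 54.8] and 12.5 CPM [9.69 to 15.9]. In WT PBS only 5 such cells had Cldn4, where Krt8 stood at 841 CPM [653 to 1066], against 291 CPM [275 to 308] in the 300 without. Itgb6 was at 0 CPM [0 to 45.6] in those 5 cells, against 10.0 CPM [7.18 to 13.6] in the others. The cells with Cldn4 of WT OVA and WT PBS held too few Itgb6 UMIs to show whether its level was higher in them. The DJ-1 KO OVA cells were also Retnla-high only, while those of WT OVA and WT PBS came from all Sftpc cells. The difference between libraries was not tested.

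Of the other genes known from the transitional state, 10 of 23 tested were past 1.5-fold higher in DJ-1 KO OVA, set against WT OVA, and 4 lower, beside 16.3% of all genes higher and 9.34% lower, and their median log2 ratio was 0.44, beside 0.09 over all genes. The libraries differ in their share of Retnla-high cells, so the list was also read within each Retnla set. Among Retnla-high cells 12 of 20 were higher and 3 lower, beside 24.9% of all genes higher and 7.8% lower. The median there was 0.68, beside 0.20 over all genes. Among Retnla-low cells 6 of 20 were higher and 4 lower, beside 16.7% of all genes higher and 12.9% lower, and the median was -0.0045, beside 0.10 over all genes. Il33, the alarmin cytokine gene, stood at 1535 CPM in DJ-1 KO OVA and 366 CPM in WT OVA, or 4.20 times [3.98 to 4.43], and at 2.41 times [2.16 to 2.70] among Retnla-high and 3.07 times [2.80 to 3.36] among Retnla-low cells. Sox9, a transcription factor of the distal lung bud, had 57 UMIs in DJ-1 KO OVA against 7 in WT OVA, or 17.4 times [7.90 to 45.1], and all 57 lay in Retnla-high cells, as did 6 of the 7 in WT OVA. Among Retnla-high cells Sox9 stood at 2.33 times [1.01 to 6.63]. The acute-phase gene Orm1 had 52 and 10 UMIs, or 11.1 times [5.57 to 24.5], but stood at 2.40 times [0.864 to 9.23] among Retnla-high cells, an interval that includes no difference. Cd14, a lipopolysaccharide co-receptor, stood at 3.48 times [3.06 to 3.96], and at 2.51 times [1.89 to 3.41] among Retnla-high and 2.08 times [1.62 to 2.64] among Retnla-low cells. Among the 4 lower genes, the stress-response gene Nupr1 stood at 240 CPM in DJ-1 KO OVA and 671 CPM in WT OVA, or 0.357 times [0.328 to 0.389], and the metalloproteinase inhibitor Timp3 at 0.414 times [0.369 to 0.464].

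In WT OVA over WT PBS 5 of 21 genes of the same list were past 1.5-fold higher and 0 lower, with a median log2 ratio of 0.17 beside 0.06 over all genes. Tnip3 stood at 3.92 times [1.73 to 10.4], the endothelin gene Edn1 at 2.58 times [1.48 to 4.71], and the stress transcription factors Ddit3 and Atf3 at 2.12 times [1.73 to 2.62] and 1.81 times [1.72 to 1.91]. Among integrin, TGF-beta and YAP targets, 1 of 13 was past 1.5-fold higher, Cyr61 at 2.03 times [1.87 to 2.21]. Among alveolar type 1 genes 1 of 8 was higher, Clic5 at 1.92 times [1.55 to 2.40]. Both counts lay near the 8.68% higher over all genes.

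In DJ-1 KO OVA over WT OVA, 3 of 7 alveolar type 1 genes were past 1.5-fold lower and 0 higher, beside 9.34% of all genes lower and 16.3% higher, and their median log2 ratio was -0.31, beside 0.09 over all genes. Among Retnla-low cells 3 of 7 were lower too, beside 12.9% of all genes, and among Retnla-high cells 1 of 5, beside 7.8%. The medians were -0.49 and 0.21 in that order, beside 0.10 and 0.20 over all genes. Hopx, a homeodomain regulator found in type 1 cells, stood at 18.9 CPM in DJ-1 KO OVA and 49.9 CPM in WT OVA, and the water channel gene Aqp5 at 223 and 383 CPM. Of 13 integrin, TGF-beta and YAP targets, 3 were higher, Itgb6 among them, and 3 lower. Fn1, the fibronectin gene, stood at 3.29 times [2.40 to 4.53], but 103 of its 105 UMIs in DJ-1 KO OVA lay in 12 of the 192 Retnla-high cells, 79 of them in 1 cell. Among Retnla-low cells the direction of Fn1 turned, with 2 UMIs in DJ-1 KO OVA against 56 UMIs for WT OVA, or 0.284 times [0.0336 to 1.08]. Tgfbi stood at 0.519 times [0.369 to 0.717]. Of 20 junction and cytoskeleton genes, 2 were higher, with Anxa1, an annexin, at 2.72 times [2.40 to 3.09], and 1 lower, Myl12a at 0.651 times [0.597 to 0.708], both counts below the share over all genes. Other keratins were sparse, with 3 of 12 tested, and Krt15 had 25 UMIs in DJ-1 KO OVA, all of them in 1 cell, against 4 in WT OVA.

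Outside Sftpc cells the members were not specific to the alveolus, as the map of levels by cell group shows. Cells with mesothelial markers had 1931 CPM of Clu in DJ-1 KO OVA, 2094 CPM in WT OVA and 1524 CPM in WT PBS, and 456, 758 and 915 CPM of Krt19, all above the Sftpc cells of their library. Cells outside the Sftpc set with at least 5% of their UMIs from club and goblet markers had 930, 1094 and 616 CPM of Krt8, and 40.4, 192 and 107 CPM of Cldn4. Cells with alveolar macrophage markers had 2115, 1412 and 2106 CPM of Lgals3, and Krt19 stood at 22.2, 255 and 561 CPM in them while Krt8 stood at 2.14 to 4.23 CPM. Itgb6 stood at 0 to 0.502 CPM in cells with fibroblast, B cell or mesothelial markers. Over 28 sums of a cell group in a library, the genes with a level most like that of Krt8 were Ttc9, Cobl, AU021092, Prr15l and Lrp2, with Pearson r of log2(CPM + 1) from 0.922 to 0.934 among 11930 genes. The sums of a library share its depth and free RNA.

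**Figure D5:**
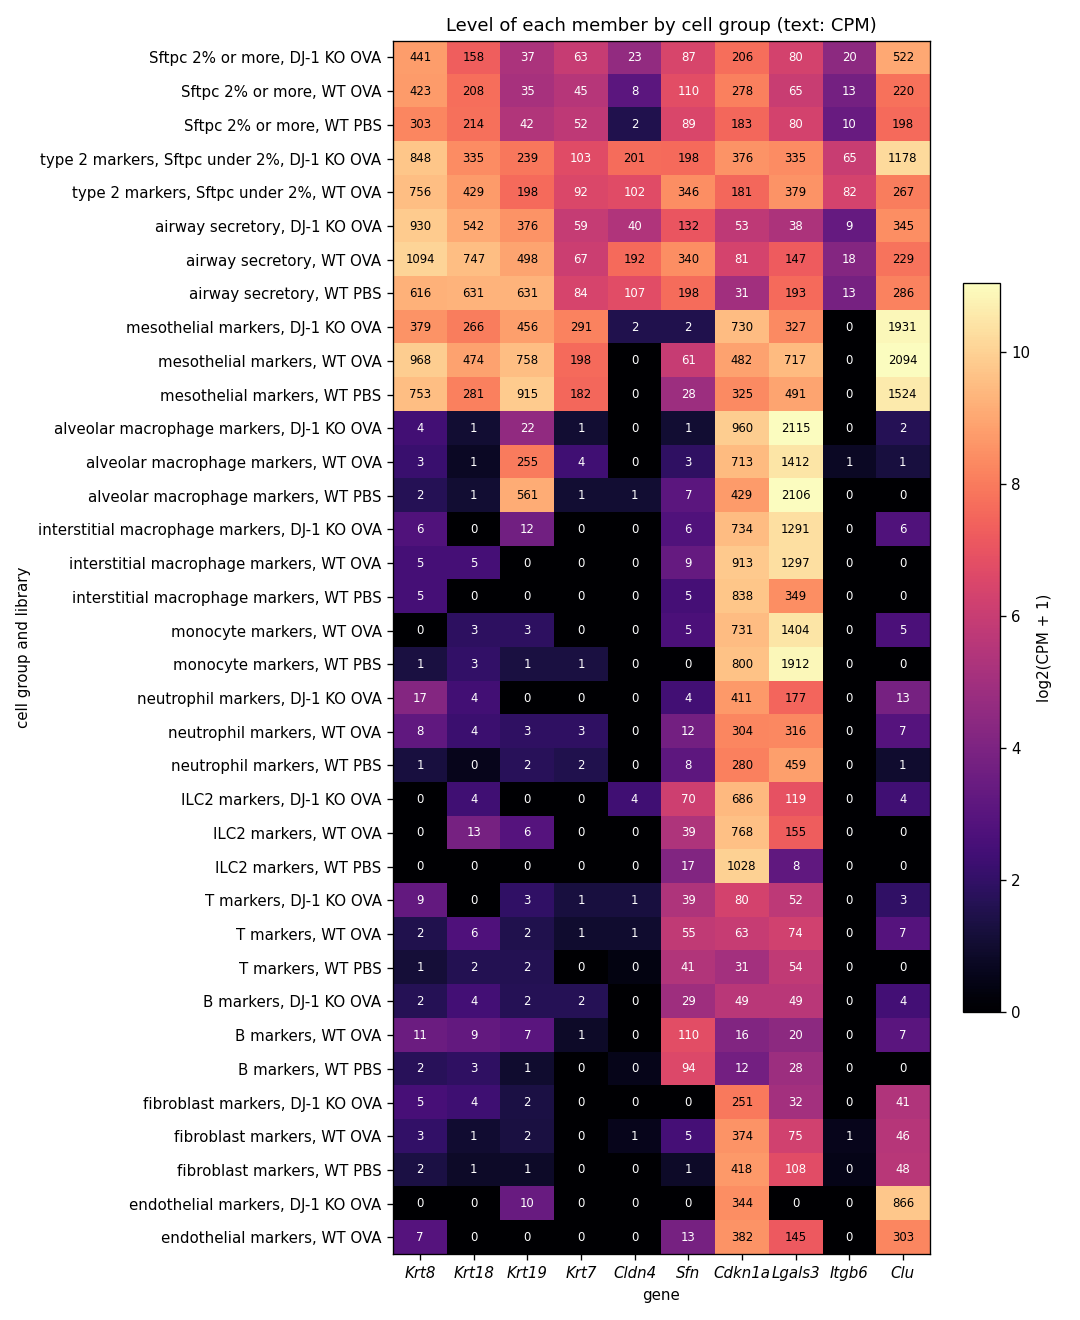
Level of each member (columns, where the number is CPM and the colour is log2 of CPM + 1) in cell groups of each library (rows, named by the markers that define them). Cells with thymocyte-like or NK markers and ungrouped cells are not shown. Cells with mesothelial markers are brightest for Clu, at 1524 to 2094 CPM, and cells with alveolar macrophage markers for Lgals3, at 1412 to 2115 CPM.

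A small group of cells had type 2 markers in the lead but under 2% Sftpc, 25 cells from DJ-1 KO OVA, 25 from WT OVA and 16 from WT PBS. They were shallower than Sftpc cells, with median UMIs of 2917, 2478 and 6865.5. All 10 members together summed to 3877, 2834 and 1924 CPM in them, against 1635, 1403 and 1173 CPM in the Sftpc cells of the same libraries. Cldn4 stood at 201, 102 and 85.2 CPM in these cells, against 23.0, 7.61 and 1.91 CPM in Sftpc cells. The sums rested on a part of the group. Cldn4 was detected in 7 of the 25 DJ-1 KO OVA cells and 4 of the 25 WT OVA cells, and Krt8 in 15 and 9. The limit on Sftpc thus left out a few cells with higher summed levels of the members; such small sums were not tested.

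Within Sftpc cells, the genes whose level went most with the number of members per thinned cell included Areg, Phlda1, Nfkbia, Thbs1, Ier5, Ptgs2, Atf3, Actg1 and Ier3, among 2055 genes. Areg, an EGF receptor ligand, had a mean Pearson r of 0.281 over the 3 libraries, and Ier3 of 0.178. Among these, Nfkbia, Ier5, Atf3 and Ier3 are early-response genes that are known to be induced by tissue dissociation as well, and the part of cell handling in the member counts was not tested. The lowest values were those of the phosphate transporter gene Slc34a2, at -0.223, and of Sftpc itself, at -0.190, both type 2 genes, where Slc34a2 was named after its value was seen. These are weak correlations over cells of shared libraries and are given as a description.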

How the data were processed

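Whole-lung single cells of 3 libraries were measured with a droplet 3′ v3 kit, per the labels' protocols. The matrices the authors deposited hold unnormalized counts of UMIs for every gene in every barcode, and per the file headers they were written by software version 3.1.0. The submitters' processing notes name Cell Ranger, STAR and mm10; the annotation release is not given in the sources used here. No barcode held fewer than 500 UMIs, and the libraries held 17339386 (DJ-1 KO OVA), 24438516 (WT OVA) and 26548669 (WT PBS) UMIs.

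Barcodes needed 200 or more genes and no more than 20% of UMIs from mitochondrial genes, and Scrublet doublets (scanpy 1.11.5, expected rate 0.06) were dropped. The lower-UMI cell of each barcode shared by WT PBS and DJ-1 KO OVA was left out. Retnla-high means at least 1% of UMIs, a limit chosen for this work. UMIs were summed per cell set and scaled to CPM; ratios are given for genes with at least 20 UMIs over both sets. Each group is 1 library, so nothing was tested. The members and gene lists were chosen with earlier results of these data known. Named genes are the members, Sftpc, Retnla, Park7, list genes past 1.5-fold (up to the 4 most extreme per list and direction) and the genes most like Krt8 or the member count; the comparison of cells with and without Cldn4, the group outside the Sftpc set with 5% club and goblet UMIs, the leaving out of such cells or of the 5 cells with the most member UMIs, and Slc34a2 were chosen after seeing the data. Some genes that this rule names are not reported here. Cells outside the Sftpc set were grouped by marker lists, with at least 3 markers and a lead of 2; Trac and Trbc2 were not used. Thinning to 2000 UMIs used a fixed seed. Ratio and interval steps were tested on simulated counts. Alternatives covered filters, doublets, shared barcodes, limits, scaling, thinning and left-out cells. Scripts ran in Python 3.11.15 with matplotlib 3.10.9, pandas 2.3.3, SciPy 1.17.1 and NumPy 2.4.6.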

Additional observations from a re-analysis of the deposited data

How the results depend on the processing

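With 1 library per group no replicate could be left out. No paired analysis was possible because each group is 1 library. Of the counts of members past 1.5-fold, 58 alternatives stayed within 1.5 times and 10 moved; of 613 alternative values of the members' log2 ratios, 56 changed sign, 15 of them where the interval of the ratio as reported excluded no difference and 41 where it included it. For WT OVA over WT PBS the count of members past the threshold was 1 with doublets kept, Sftpc at 1%, the total without Sftpc and Retnla, cells weighted alike, or a 2-fold limit. For Retnla-high over Retnla-low it was 1 in WT OVA with a Retnla limit of 5% or without the 5 cells with the most member UMIs, and 0 in DJ-1 KO OVA with a limit of 5% or without cells holding 2 or more markers of other types. For Retnla-high cells of DJ-1 KO OVA over WT OVA it was 1 with a limit of 0.1%.

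Signs turned as follows where that interval excluded no difference (log2). For WT OVA over WT PBS: Lgals3 0.0243 without both cells of shared barcodes and 0.17 without the 5 cells, and Clu -0.0047 with cells weighted alike. Between DJ-1 KO OVA and WT OVA: Sfn 0.16 without cells holding other markers, and Cdkn1a 0.21 in Retnla-low cells alone. For Retnla-high over Retnla-low in WT OVA: Krt18 -0.0215 with Sftpc at 5%, -0.415 with Retnla at 5%, -0.20 without the 5 cells and -0.0827 without airway-marker cells, and Krt8 -0.17 with Retnla at 5%, -0.22 without cells holding other markers (4 and 209 cells left) and -0.13 without the 5 cells. In DJ-1 KO OVA: Krt8 -0.0628 with Retnla at 5% and Sfn 0.21 without cells holding other markers. For Retnla-high DJ-1 KO OVA over WT OVA, Clu was -0.22 without cells holding other markers (33 and 4 cells left). The cause was not tested. Of the 41 other turns, 16 were in that last comparison (Cldn4 -0.66 without cells holding other markers), 14 and 5 in Retnla-high over Retnla-low of DJ-1 KO OVA and WT OVA, 2 between DJ-1 KO OVA and WT OVA (Krt8 -0.0967 in Retnla-low cells) and 4 for WT OVA over WT PBS, all without cells holding other markers (Krt7 0.63, Krt19 0.13, Krt18 0.0728 and Itgb6 -0.24).

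Differences in the share of cells with 5 or more members followed depth when cells were not thinned, at -22.6 points for WT OVA over WT PBS, 19.9 between DJ-1 KO OVA and WT OVA, and 25.7 and 20.4 for Retnla-high over Retnla-low in WT OVA and DJ-1 KO OVA. In WT OVA that difference was -3.59 with Sftpc at 5%, -3.77 with Retnla at 5%, -3.69 without airway-marker cells, -3.19 without cells holding other markers and -6.79 for 4 or more members. In DJ-1 KO OVA it was -9.09 without cells holding other markers. Between Retnla-high cells of DJ-1 KO OVA and WT OVA it was 9.27 for 4 or more members.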
